A study of Homo sapiens with 15 samples.

Results

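Replication-dependent and linker histone genes were followed in Caco-2, an established line of colon carcinoma cells of epithelial origin, used here before it differentiates. The genes were taken by name, as a group chosen with earlier results of these data known. They are every gene on the array whose current symbol begins with H1-, H2AC, H2BC, H3C or H4C, with a probe set naming no other gene. Where a gene had several, the one brightest on average over the 15 arrays was used. There were 50 such genes of 19775, made up of 11 with H1 names, 9 H2A, 14 H2B, 7 H3 and 9 H4, of which 46 code for protein, 3 are pseudogenes (H1-9P, H2AC5P and H4C10P) and 1 is an antisense RNA (H1-10-AS1). The cells were kept for 24 h in serum-free DMEM under 15 conditions with a single array each, and the question was what the fermentation products of polydextrose, a poorly digested glucose polymer, do to gene expression. For 12 arrays the medium held 10% by volume of centrifuged, cell-free fluid from a colon simulator run for 48 h with 0%, 1% or 2% polydextrose. Each concentration has 4 arrays, 1 from each connected vessel, and vessels 1 to 4 follow the course of the large bowel: ascending, transverse and descending colon, then sigmoid and rectum. The other arrays were 5 mM butyrate, a bacterial fatty acid that inhibits histone deacetylases, 100 mM NaCl, and medium alone. No array has a repeat and the labels name no second simulation, so simulation and concentration cannot be told apart, and p-values measure only the spread among these fluid arrays.

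Core histones H2A, H2B, H3 and H4 form the protein spool around which DNA is wound in the nucleosome, and linker histones of the H1 group bind the DNA where it enters and leaves. The replication-dependent genes lie in clusters, are transcribed strongly while DNA is copied, and mostly give mRNAs that end in a stem-loop instead of a poly(A) tail. Some of them also give polyadenylated mRNAs in cells that have stopped dividing. The labels name Affymetrix's standard labelling without its primer, so whether mRNAs without a tail were read in full is not given in the sources used here.

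The promoters of the 3 genes with the largest called difference between 2% and 0% fluid are printed here. They were chosen by that difference, and elements known from histone genes were then searched in them. They are the RefSeq windows of build GRCh38.p14, from 250 bases before to 50 bases after the start of transcription, 5′ to 3′ along the gene, with capitals for the letters of a motif search on both strands. H4C8 lies at chr6:26285485-26285784 (minus strand), H2BC21 at chr1:149886633-149886932 (minus strand) and H2BC4 at chr6:26123877-26124176 (minus strand). Most of these letters fall before the start of transcription, and the last 50 bases run into the transcript.
H4C8: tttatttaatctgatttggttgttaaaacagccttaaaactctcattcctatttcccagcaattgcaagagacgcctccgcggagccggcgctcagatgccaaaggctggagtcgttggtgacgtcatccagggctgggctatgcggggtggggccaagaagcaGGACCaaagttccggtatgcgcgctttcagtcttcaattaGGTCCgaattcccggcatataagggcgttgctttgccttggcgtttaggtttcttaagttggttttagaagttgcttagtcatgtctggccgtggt
H2BC21: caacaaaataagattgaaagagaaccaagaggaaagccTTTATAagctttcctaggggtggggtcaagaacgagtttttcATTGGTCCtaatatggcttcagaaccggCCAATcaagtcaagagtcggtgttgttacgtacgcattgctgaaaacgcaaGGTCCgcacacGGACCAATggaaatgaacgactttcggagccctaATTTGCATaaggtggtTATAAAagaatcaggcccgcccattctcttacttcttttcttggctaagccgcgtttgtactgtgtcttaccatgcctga
H2BC4: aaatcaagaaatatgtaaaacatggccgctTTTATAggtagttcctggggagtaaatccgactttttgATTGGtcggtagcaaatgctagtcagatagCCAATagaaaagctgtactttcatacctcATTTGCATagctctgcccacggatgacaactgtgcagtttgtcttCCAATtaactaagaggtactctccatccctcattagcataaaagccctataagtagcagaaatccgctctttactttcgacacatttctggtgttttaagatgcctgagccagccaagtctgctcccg
In H4C8 the capitals mark GGTCC, the core of the element bound by the H4 gene regulator HINFP, whose first bases lie at -86 (as its reverse complement) and -46 from the start. In H2BC21 they mark the octamer ATTTGCAT, read by POU2F1 (OCT1), at -46 and TATAAA at -30, and in H2BC4 the octamer at -123, and the remaining capitals are other matches to the same motifs. The octamer was found in 10 of the 13 H2B and 6 of the 8 H2A members with a RefSeq window, in 0 of the 9 H1, 6 H3 and 7 H4 members, and in 2.19% of the windows of 27305 genes. GGTCC was found in 6 of 7 H4 members, but in 16 of all 43 members (37.2%), below the 50.6% of all genes. AAACACA, an H1 promoter element, was found in 7 of 9 H1 members and in 6.94% of all genes. CCAAT was found in 37 of 43 members, though in 2 of 7 H4 members, and in 39.7% of all genes. TATAAA was found in 28 of 43 members and in 14.0% of all genes. Short motifs match often by their length alone, GGTCC and CCAAT can overlap, and a match is a description of the letters. The windows of H2BC4 and its neighbour H2AC6 share 255 bases, since the pair is transcribed in opposite directions from one stretch of DNA.

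A gene was tested where it had a log2 signal of at least 5 in at least 4 of the 12 fluid arrays, which 13 of the 50 members and 8737 of all genes did. The 13 are H1-2 and H1-10, linker histones, H2AC6, H2AC17 and H2AC25, which code for H2A, H2BC4, H2BC5, H2BC6, H2BC9, H2BC12, H2BC12L and H2BC21, which code for H2B, and H4C8, which codes for H4, and no H3 gene was among them. That limit did not act through 1 concentration for 11 of the 13, which were at 5 or more on all 12 fluid arrays, while H2BC4 was there on 3, 4 and 4 of the 4 arrays at 0%, 1% and 2% and H2AC17 on 1, 3 and 3. Histone genes differ by few bases. The probe sets of H2BC5, H2BC6, H2BC9 and H2BC12L are of the type that may bind related transcripts, so these 4 readings are uncertain as to which H2B copy they come from. Those of H2BC21, H2AC6 and H1-10 are of another type, whose probes may be shared by several transcripts, so these too are read as that gene only by the annotation. Arrays were alike in their share of genes at 5 or more, 42.27% to 44.1%. Of 9 epithelial markers EPCAM, CDH1, KRT8, KRT18 and KRT19 were at 5 or more on all 15 arrays, while CDX1, CDX2, VIL1 and LGALS4, markers of colon epithelium, were under 5 on all of them. All leukocyte and endothelial markers measured were under 5, as were 4 of 5 fibroblast markers, the exception being COL1A1 at 8.13 with butyrate and 1.37 in medium, whose part in the results was not tested.

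**Figure D1:**
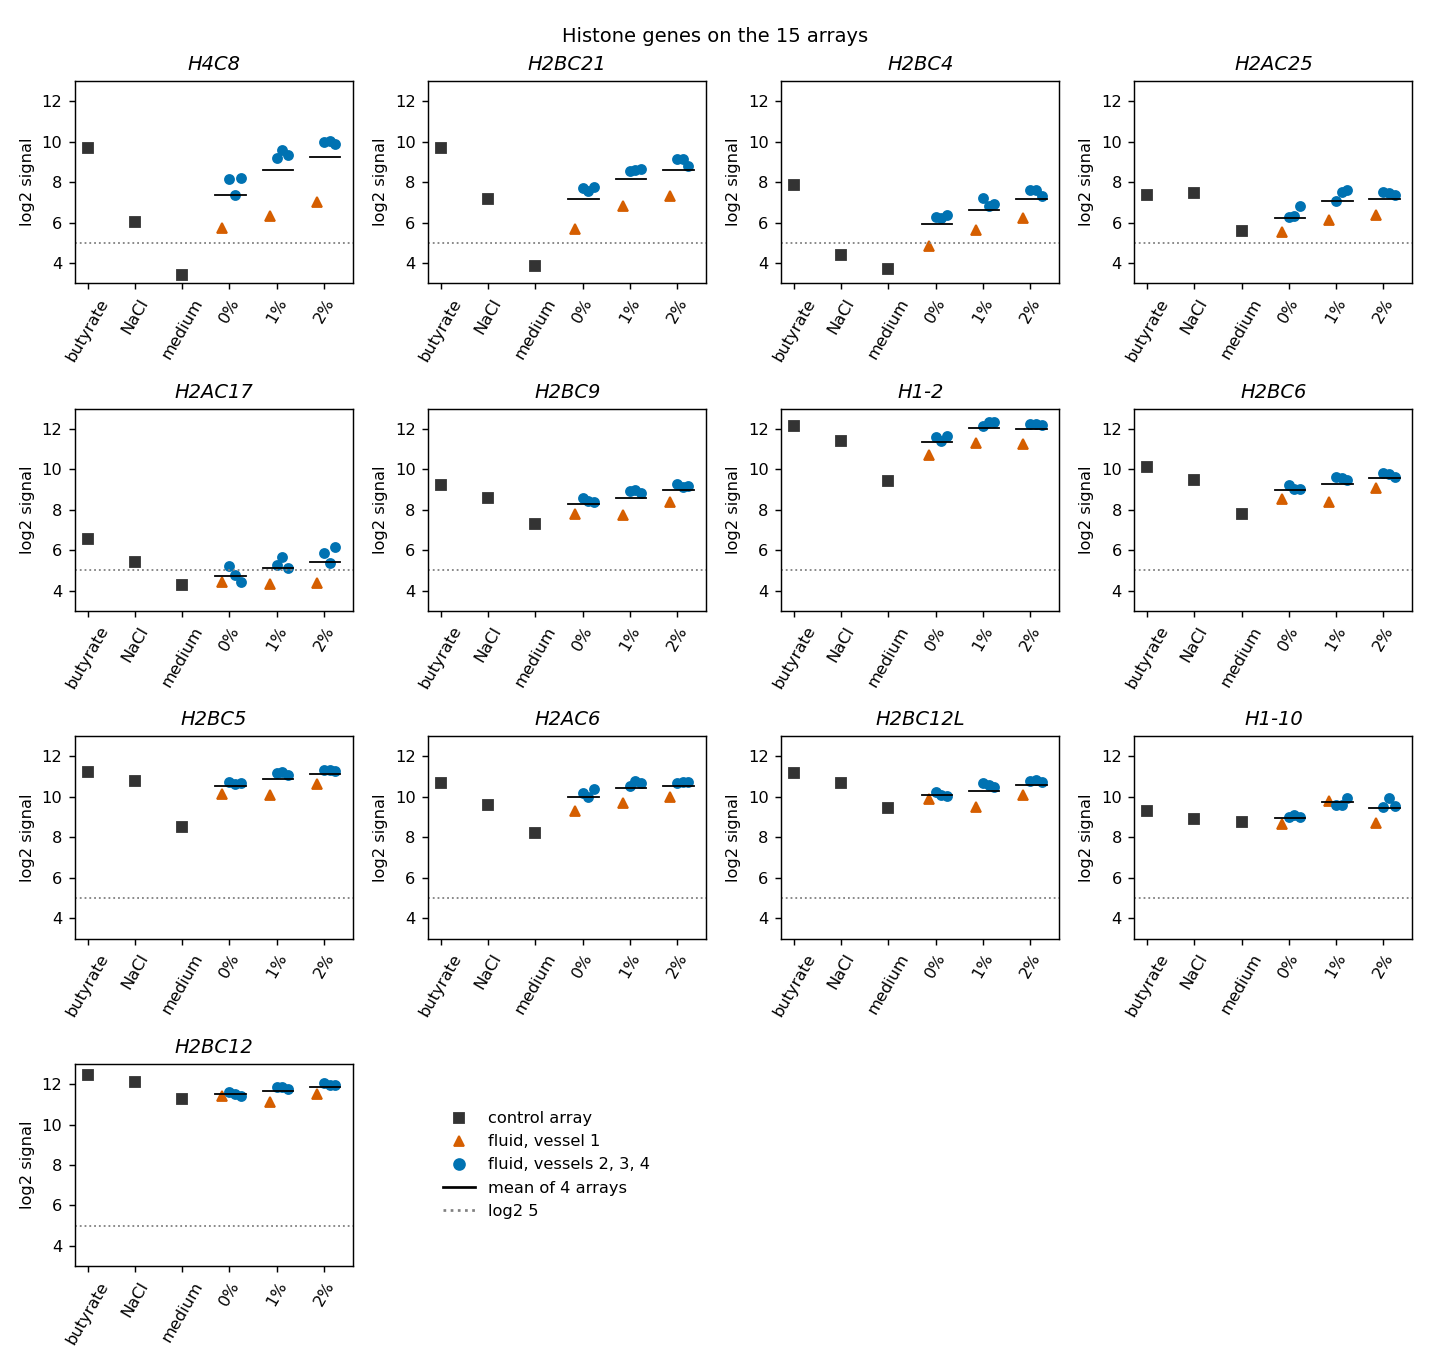
Log2 signal (vertical axis) of the 13 histone genes past the signal limit, a panel per gene, with the 3 control arrays and the 3 fluid concentrations along the horizontal axis. Squares are control arrays, triangles vessel 1, dots vessels 2 to 4, and the black line the mean of 4. H4C8 reaches 10.05 in vessel 3 at 2%, against 3.40 in medium, and the triangles lie under the dots in nearly every panel.

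H4C8, a gene for the core histone H4, showed the widest range of the 13 over the 15 arrays, at least 5.05 on the log2 scale with medium set to the limit of 5. Its signal was 9.70 with butyrate, 6.01 with NaCl and 3.40 in medium. In vessels 1, 2, 3 and 4 it was 5.74, 8.14, 7.37 and 8.20 at 0%, then 6.32, 9.21, 9.57 and 9.36 at 1%, and 7.004, 9.97, 10.05 and 9.88 at 2%. Vessel 1 was the lowest of its 4 at each concentration, the other vessels stood higher at 2% than at 0% without overlap, and medium was lowest of all. The mean was 9.23 ± 1.48 at 2% and 7.36 ± 1.15 at 0% (SD, n = 4 each), a difference of 1.86 ± 0.22 (SE) or 3.64-fold (limma adjusted p = 0.00185). A second probe set of H4C8, which the choice of members did not use, gave a difference of 1.87 between the same means. It is of the type whose probes may be shared by several transcripts.

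H2BC21, an H2B gene on chromosome 1, read 9.67 with butyrate, 7.19 with NaCl and 3.86 in medium. Its fluid values in vessels 1 to 4 were 5.68, 7.72, 7.57 and 7.76 at 0%, 6.82, 8.57, 8.60 and 8.67 at 1%, and 7.32, 9.16, 9.16 and 8.78 at 2%. The butyrate array was the highest of the 15, medium the lowest, and vessel 1 lay more than a log2 unit under the other vessels at each concentration. At 2% the mean was 8.60 ± 0.87, against 7.18 ± 1.00 at 0% (SD, n = 4 each). The difference of 1.42 ± 0.11 (SE), or 2.68-fold, had the smallest adjusted p of the members (limma, 0.000793).

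H2BC4, an H2B gene of the large cluster on chromosome 6, had 7.87 with butyrate, 4.39 with NaCl and 3.69 in medium. It read 4.86, 6.27, 6.23 and 6.39 in vessels 1 to 4 at 0%, 5.63, 7.22, 6.83 and 6.91 at 1%, and 6.23, 7.60, 7.60 and 7.30 at 2%. NaCl and medium were both under the limit of 5, where the order of values says little, and butyrate was above every fluid array. The means of 7.18 ± 0.65 at 2% and 5.94 ± 0.72 at 0% differed by 1.24 ± 0.10 (SE), 2.37-fold (limma adjusted p = 0.000911).

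The remaining H2B genes moved over narrower ranges, and each was highest with butyrate or at 2%. H2BC5, next to H2BC6 on chromosome 6, read 11.24 with butyrate, 10.80 with NaCl and 8.54 in medium, and 10.12, 10.75, 10.62 and 10.71 in vessels 1 to 4 at 0%, 10.08, 11.19, 11.23 and 11.11 at 1%, and 10.64, 11.34, 11.33 and 11.30 at 2%. All fluid arrays exceeded medium by more than a log2 unit. H2BC6 read 10.10 with butyrate, 9.49 with NaCl and 7.78 in medium, and 8.54, 9.22, 9.02 and 9.03 at 0%, 8.39, 9.60, 9.58 and 9.47 at 1%, and 9.07, 9.83, 9.75 and 9.61 at 2%. Butyrate was above every fluid and medium below every fluid. H2BC9 had 9.24 with butyrate, 8.60 with NaCl and 7.28 in medium, and 7.81, 8.59, 8.42 and 8.39 at 0%, 7.72, 8.92, 8.97 and 8.82 at 1%, and 8.39, 9.26, 9.12 and 9.20 at 2%. Vessel 2 at 2% was its highest array, at the level of butyrate.

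H2BC12 was bright on every array, with 12.44 under butyrate, 12.12 under NaCl and 11.24 in medium. Its fluid values were 11.42, 11.63, 11.51 and 11.43 in vessels 1 to 4 at 0%, 11.11, 11.84, 11.83 and 11.75 at 1%, and 11.51, 12.03, 11.97 and 11.98 at 2%. Both the butyrate and the NaCl array stood above all 12 fluids, and vessel 1 at 1% lay under medium. H2BC12L, an H2B gene on chromosome 21 and so outside the clusters, read 11.17 with butyrate, 10.71 with NaCl and 9.46 in medium, and 9.90, 10.26, 10.10 and 10.04 at 0%, 9.50, 10.67, 10.57 and 10.48 at 1%, and 10.07, 10.79, 10.84 and 10.74 at 2%. Here too butyrate was highest and medium lowest.

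Among the H2A genes, H2AC6, the neighbour of H2BC4, read 10.69 with butyrate, 9.60 with NaCl and 8.22 in medium. Its values were 9.32, 10.22, 9.98 and 10.38 in vessels 1 to 4 at 0%, 9.71, 10.54, 10.78 and 10.67 at 1%, and 10.00, 10.69, 10.75 and 10.71 at 2%. Vessels 2 to 4 at 2% reached the butyrate level, and NaCl lay within the spread of the 0% arrays. H2AC25, on chromosome 1, read 7.36 with butyrate, 7.45 with NaCl and 5.56 in medium, and 5.54, 6.27, 6.34 and 6.83 at 0%, 6.12, 7.07, 7.52 and 7.62 at 1%, and 6.38, 7.53, 7.45 and 7.35 at 2%. It was the one tested member whose NaCl array was above its butyrate array, and vessel 1 at 0% was level with medium. H2AC17, near the limit, read 6.57 with butyrate, 5.42 with NaCl and 4.28 in medium, and 4.45, 5.22, 4.76 and 4.41 at 0%, 4.34, 5.27, 5.66 and 5.15 at 1%, and 4.37, 5.86, 5.37 and 6.15 at 2%. Its vessel 1 arrays stayed under 5 at every concentration.

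Both linker histone genes were bright. H1-2, a clustered H1 gene, read 12.14 with butyrate, 11.38 with NaCl and 9.42 in medium, and 10.69, 11.60, 11.41 and 11.67 in vessels 1 to 4 at 0%, 11.29, 12.13, 12.36 and 12.31 at 1%, and 11.24, 12.26, 12.23 and 12.18 at 2%. Every fluid array was more than a log2 unit above medium, and the 1% and 2% arrays overlapped. H1-10, a linker histone gene on chromosome 3 outside the clusters and known as replication-independent, read 9.31 with butyrate, 8.92 with NaCl and 8.76 in medium, and 8.66, 9.03, 9.10 and 9.01 at 0%, 9.81, 9.61, 9.60 and 9.94 at 1%, and 8.74, 9.50, 9.96 and 9.57 at 2%. It had the smallest range of the 13 tested members over the arrays, 1.30, its vessel 1 array was low at 2% and not at 1%, and 2 fluid arrays, vessel 1 at 0% and at 2%, were under medium.

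The other 37 members lay near background. Of these 34 were under log2 5 on all 15 arrays and 3 reached 5 on 1 array each, with values from 1.15 to 6.35 over all. Those 3 were H3C6, a gene for the core histone H3, at 6.35 with NaCl against 3.42 in medium, H3C2 at 5.57 with NaCl against 3.85 in medium, and H4C11 at 5.07 in vessel 4 at 2%. In the fluids H3C6 stayed between 3.87 and 4.73 and read 4.20 with butyrate, so its NaCl array stood alone. A second probe set of H3C6, not used, read 3.07 with NaCl and 1.71 in medium, both under 5.

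Relative to 0% fluid, most of the readable histone genes were higher in cells given fluid with 2% polydextrose. Of the 13 tested, 11 rose and 0 fell, beside 9.65% of all genes that rose and 11.2% that fell, and the median difference was 0.64 for the members and -0.01 for all genes. The 11 were the 7 H2B genes, H2AC6 and H2AC25, H1-2 and H4C8. After the 3 largest, H2AC25 rose by 0.93 ± 0.13 (SE, adjusted p = 0.00307), and H2BC9, H1-2, H2BC6, H2BC5, H2AC6, H2BC12L and H2BC12 rose by 0.69, 0.64, 0.61, 0.60, 0.56, 0.54 and 0.38, with adjusted p up to 0.0336 in limma. H2AC17 differed by 0.73 ± 0.26 (adjusted p = 0.0719) and H1-10 by 0.49 ± 0.18 (adjusted p = 0.0835), so neither passed. Single arrays decided 4 calls: H2BC12 and H2BC12L did not pass when any 1 of the arrays of vessels 2, 3 and 4 at 0% or 2% was left out, with adjusted p of 0.0627 to 0.119, nor H2BC12 without vessel 2 or 4 at 1%, while H1-10 passed without vessel 1 at 1% or 2% and H2AC17 without vessel 1 at 0% or 2%. For the order of arrays, values under 5 were set to 5 and ties did not count. In 12 of 13 members 2% was above 0% within each of the 4 vessels, as in 18.1% of all genes, H2AC17 being the exception, under 5 in vessel 1 on both arrays. Within vessels 2 to 4 all 3 arrays at 2% exceeded all 3 at 0% in 13 of 13 members (23.6% of all genes), but over all 4 vessels the groups overlapped in every member, and 0 were apart (2.21% of all genes). H2AC17 is among the 13, but it reached 5 on 1 array at 0% and on 3 each at 1% and 2%. It met the signal limit mainly through the concentrations where it is higher, so it adds no support. The call rests on comparing within vessels: with no replicate block 0 members and 0% of all genes passed, and H4C8, with the same difference of 1.86, had an adjusted p of 0.228.

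**Figure D2:**
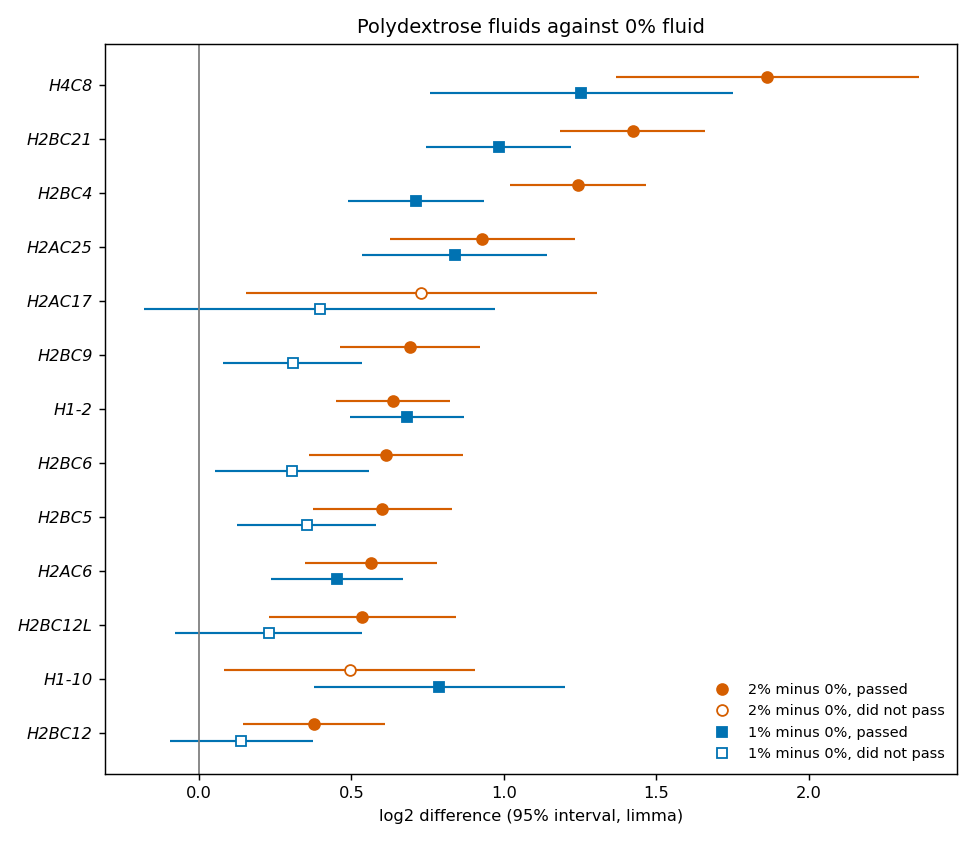
Log2 difference from 0% fluid (horizontal axis) for each of 13 histone genes, at 2% (circles) and at 1% (squares), with 95% intervals from limma, filled where the adjusted p passed. Intervals of the 2% circles lie above 0 for all 13 genes, with 2 open circles, H2AC17 and H1-10.

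At 1% polydextrose, compared with the same 0% arrays, 7 of 13 rose and 0 fell, beside 2.63% and 2.15% of all genes. The differences were 1.25 ± 0.22 (SE) for H4C8 (adjusted p = 0.0236), 0.98 for H2BC21, 0.84 for H2AC25, 0.79 for H1-10, 0.71 for H2BC4, 0.68 for H1-2 and 0.45 for H2AC6. The other H2B genes differed by 0.14 to 0.35 and did not pass. In them vessel 1 had a lower signal at 1% than at 0%, with differences from -0.05 in H2BC5 to -0.40 in H2BC12L, while vessels 2, 3 and 4 were each higher at 1%. Without the 3 arrays of vessel 1, 12 members rose, beside 6.62% of all genes. This count moved with single arrays, and so did the share of all genes. Without vessel 4 at 1% 0 members and 0% of all genes rose, without vessel 2 at 0% 1 member and 0.0801% rose, and without vessel 1 at 0% 11 members and 6.59% rose. Without any other array of either group 3 or 4 members rose, beside 0.172% to 0.893% of all genes. With no replicate block both were 0.

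Between 2% and 1% no member passed, nor did any gene (0% of all). The median member difference was 0.31, and 8 of 13 members had an unadjusted limma p under 0.05, beside 1608 of all 8737 genes. The smallest adjusted p was 0.118, for H2BC4 at 0.53 (95% interval 0.31 to 0.76). For H1-2 the interval was -0.23 to 0.14 and for H1-10 -0.71 to 0.12. Without vessel 1 at 0%, H2BC21, H2BC4 and H2BC9 passed as higher at 2%, beside 2.31% of all genes that rose and 4.31% that fell.

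Cells given fluid from vessel 1, the ascending colon, had less signal for nearly all of these genes than cells given fluid from the later vessels. In the fit 12 of 13 were lower and 0 higher in vessel 1, beside 15.4% lower and 19.3% higher among all genes, with median differences of -0.88 and 0.02. H2AC17, counted among the 12, was under 5 on all 3 vessel 1 arrays. It met the signal limit only through the later vessels, so its call adds no support. H4C8 averaged 6.35 ± 0.63 in vessel 1 (SD, n = 3) and 9.08 ± 0.96 in vessels 2 to 4 (n = 9), where its lowest, median and highest values were 7.37, 9.36 and 10.05. It was lower by a log2 difference of -2.73 ± 0.21 (SE), or 6.63-fold (limma adjusted p = 0.000145). For H2BC21 the difference was -1.83 ± 0.10 (adjusted p = 0.000103), with 5.68, 6.82 and 7.32 in vessel 1 and 7.57, 8.60 and 9.16 as lowest, median and highest in vessels 2 to 4. H2BC4 followed with -1.35 ± 0.09 and H2AC25 with -1.10 ± 0.13, and the other called members lay between -0.95 for H1-2 and -0.43 for H2BC12. H1-10 did not pass, at -0.41 ± 0.17 (adjusted p = 0.0911), and its vessel 1 array at 1% was above vessels 2 and 3. H2AC17 and H2BC12 did not pass without vessel 1 at 1% (adjusted p of 0.0853 and 0.0645) or at 2% (0.110 and 0.0523), and H1-10 passed without vessel 1 or vessel 3 at 1%.

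In 11 of 13 members vessel 1 was under each of the other vessels at all 3 concentrations, as in 14% of all genes, the exceptions being H1-10 and H2AC17. For H4C8, H2BC21, H2BC4 and H1-2, 4 of 13 members and 4.88% of all genes, all 3 vessel 1 arrays, 2% included, lay under all 9 others, in H2BC4 by a margin that rounds away (6.23 on both sides). H4C8 in vessel 1 at 2% (7.004) was thus below H4C8 in vessel 3 at 0% (7.37). Beside these values, the actin 3′ minus 5′ probe difference, a sign of RNA integrity, was 0.73, 0.92 and 0.62 in vessel 1 at 0%, 1% and 2% and between 0.37 and 0.64 in vessels 2 to 4, and its part in the result was not tested. Whether the change per 1% polydextrose differs between vessel 1 and the later vessels was tested in the same arrays: 0 of 13 members passed, beside 1.17% of all genes. An unadjusted limma p under 0.05 was found in 0 members, beside 1739 of all 8737 genes. The estimates ran from -0.54 for H2AC17 (95% interval -1.10 to 0.02, adjusted p = 0.269) to 0.15 for H2BC21 (-0.12 to 0.41), so these arrays do not show equal responses either. The vessel 1 arrays of H2AC17 were all under 5, too near background to rank. Without vessel 1 at 2%, H2BC12L passed with an estimate of -0.84 (limma adjusted p = 0.0346), beside 2.4% of all genes with a positive and 1.2% with a negative estimate. Over the alternative fits its estimate ran from -0.84 to 0.36, so its sign was not stable.

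**Figure D3:**
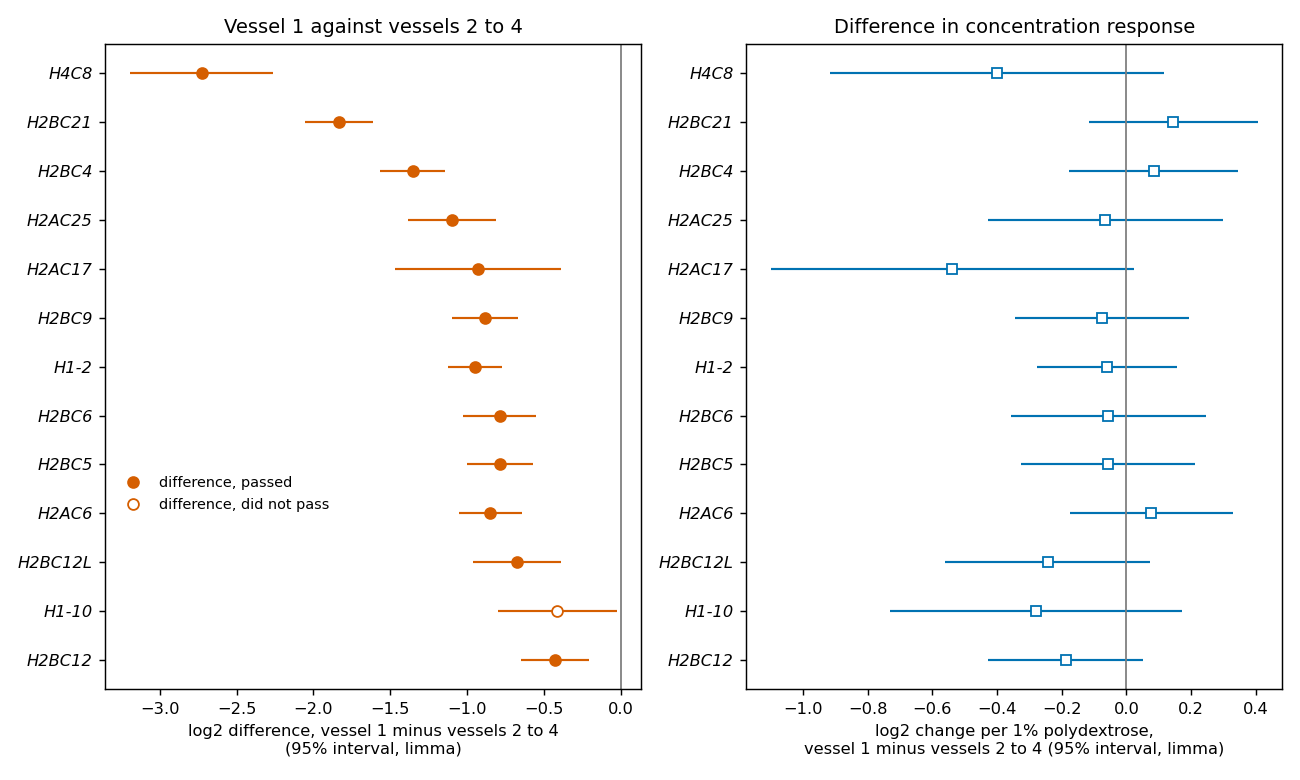
Left, log2 difference of vessel 1 from vessels 2 to 4 (horizontal axis) for 13 histone genes, and right, the difference in log2 change per 1% polydextrose between vessel 1 and vessels 2 to 4, both with 95% limma intervals. Filled points passed: 12 on the left, from -2.73 in H4C8 to -0.43 in H2BC12, and 0 on the right, where all intervals include 0. H2AC17, filled on the left, was under log2 5 on all vessel 1 arrays.

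The control arrays put these differences beside those with a known deacetylase inhibitor and a salt, without a test, since each is 1 array. Differences of at least 1 on the log2 scale were counted where the brighter side was at 6 or more, and a dim side under 5 was set to 5 and gives a lower bound. With butyrate 12 of 13 members were higher than in medium and 0 lower, beside 15.6% higher and 15.6% lower among all genes. H4C8, H2BC21, H2BC4, H2AC17 and H2AC25 reached 6 only with butyrate, so they could not be counted as lower. The limit acts in the same way on all genes. H4C8 was at least 26.0-fold higher with butyrate than in medium, H2BC21 at least 25.4-fold, H2BC4 at least 7.32-fold and H2AC17 at least 2.97-fold. H1-2 was 2.71 higher on the log2 scale, H2BC5 2.70, H2AC6 2.46, H2BC6 2.32, H2BC9 1.96, H2AC25 1.80, H2BC12L 1.71 and H2BC12 1.19, while H1-10 was 0.56 higher.

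With 100 mM NaCl 10 of the 12 members bright enough to compare were higher than in medium and 0 lower, beside 8.93% and 7.67% of all genes. H4C8, H2BC21, H2AC25 and H3C6 reached 6 only with NaCl, so they could not be counted as lower. H2BC5 was 2.27 higher, H1-2 1.96, H2AC25 1.89, H2BC6 1.70, H2AC6 1.38, H2BC9 1.32 and H2BC12L 1.25, and the bounds were at least 2.19 for H2BC21, 1.35 for H3C6 and 1.01 for H4C8. H2BC12 was 0.88 and H1-10 0.16 above medium, and NaCl exceeded medium in 12 of the 13 tested members (48.5% of all genes), H2BC4 being under 5 in both. Set against NaCl in place of medium, butyrate was higher in 5 of 14 members compared and lower in 1, beside 15.9% and 17% of all genes. The 5 were higher by 3.68 in H4C8, at least 2.87 in H2BC4, 2.48 in H2BC21, 1.15 in H2AC17 and 1.09 in H2AC6. The member that was lower was H3C6, and H2AC25 changed sign to -0.09. In this comparison H3C6 reached 6 only with NaCl, and H2BC4 and H2AC17 only with butyrate.

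Fluid without polydextrose was also above medium: of 11 members compared 7 were higher and 0 lower, beside 7.81% and 4.8% of all genes. H4C8, H2BC21 and H2AC25 reached 6 only in the fluid, so they could not be counted as lower. The mean of the 4 arrays at 0% was at least 2.36 above medium for H4C8 and at least 2.18 for H2BC21, and 2.01 above for H2BC5, 1.92 for H1-2, 1.75 for H2AC6, 1.17 for H2BC6 and 1.02 for H2BC9. All 12 fluid arrays were above medium in 8 of 13 members (29.9% of all genes), and medium was the lowest of the 15 arrays in the same 8 (17% of all genes). The exceptions to both were H1-10, H2AC25 and H2BC12, and H2AC17 and H2BC4, whose medium and vessel 1 arrays at 0% were under 5. Against the NaCl array, however, 0% fluid was higher by 1 or more in 1 of 12 members compared, H4C8 (1.35), and lower in 2, H2AC25 (-1.21) and H3C6, beside 11% and 9.89% of all genes. H3C6 reached 6 only with NaCl and could not be counted as higher. The values of H1-2, H2BC21, H2BC5, H2BC6 and H2BC9 changed sign to -0.04, -0.01, -0.25, -0.53 and -0.30. Medium also had the largest actin 3′ minus 5′ difference of the 15 arrays, 0.95, beside 0.64 with NaCl and 0.59 with butyrate, and its part in the differences from medium was not tested.

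Fluid with 2% polydextrose was also set beside 5 mM butyrate. None of 13 was higher by 1 in the fluid mean (3.12% of all genes) and 2 were lower (1.88%), H2AC17 by -1.13 and H2BC21 by -1.06. H2AC17 reached 6 only with butyrate and could not be counted as higher in the fluid. The mean at 2% minus butyrate lay between -0.25 and 0.13 for H1-10, H1-2, H2AC25, H2AC6, H2BC5 and H2BC9, and between -0.69 and -0.47 for H4C8, H2BC6, H2BC12, H2BC12L and H2BC4. Without the vessel 1 array no member was lower by 1, and H4C8 was 0.27 above butyrate. Butyrate was the highest of all 15 arrays in 6 of 13 members (18.8% of all genes), H2AC17, H2BC12, H2BC12L, H2BC21, H2BC4 and H2BC6.

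**Figure D4:**
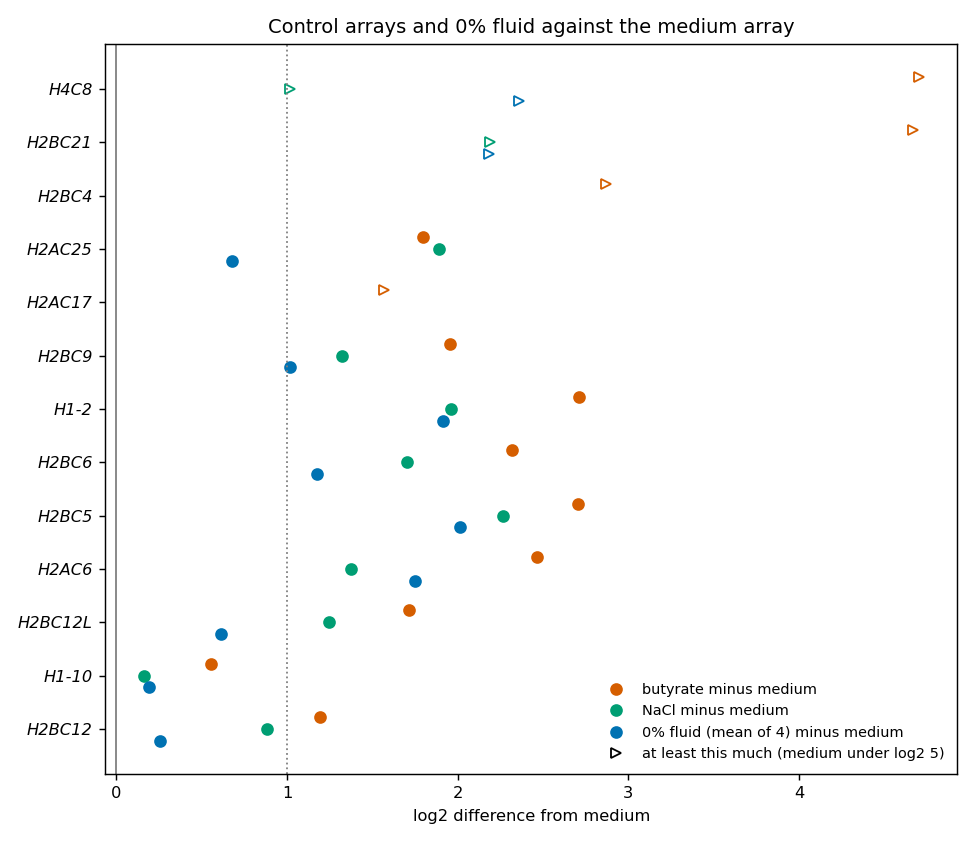
Log2 difference from the medium array (horizontal axis) for 13 histone genes, for butyrate, NaCl and the mean of the 4 arrays at 0% fluid, drawn only where the brighter side reached log2 6. H2BC4 and H2AC17 therefore have only their butyrate point. Open triangles are lower bounds where medium was under log2 5, and all points drawn lie right of 0, up to at least 4.70 for H4C8 with butyrate.

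Probe sets that name several histone genes, left out of the choice above, cover the families with few readable single genes. Of 20 such sets 12 were past the signal limit. A set shared by 10 H3 genes averaged 7.89 ± 1.00 at 2% and 6.52 ± 0.27 at 0% (SD, n = 4 each), and read 9.44 with butyrate, 6.85 with NaCl and 4.86 in medium. The sets of H2AC18 and H2AC19, a nearly identical pair of H2A genes, were 0.75 and 0.92 higher at 2%. Of the sets shared by 14 H4 genes one averaged 10.66 ± 0.29 at 2% and 11.04 ± 0.12 at 0%, and read 10.84 with butyrate and 11.82 in medium. Another was past the limit only through arrays at 1% and 2%, with 0 of 4 arrays at 5 or more at 0%, so no difference is given for it. The last one past the limit went the other way, near 5. It averaged 5.23 ± 0.37 at 2% and 4.82 ± 0.36 at 0%, and read 5.13 with butyrate and 4.72 in medium. Which H4 gene each of them reads was not tested, and no probe sequences were used.

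Other genes of the histone pathway, which are no members, rose in 1 case, beside 9.65% of all genes that rose and 11.2% that fell. Of 5 variant histone genes tested, which are made throughout the cell cycle or have special sites, 0 rose and 3 fell at 2% against 0%: CENPA, the centromere H3, by 1.00 on the log2 scale, H2AX, which is marked at DNA breaks, by 0.66, and H2AZ1 by 0.27. Of 14 histone chaperones 0 rose and 5 fell, among them HJURP, which loads CENPA, by 1.54, and ASF1B, which hands over H3 and H4, by 0.64. Among 12 genes for histone transcription and mRNA 3′ ends 1 rose, HINFP by 0.26, and 1 fell, CSTF2, a cleavage factor, by 0.34. SLBP, which binds the stem-loop, differed by -0.17 (adjusted p = 0.159) and NPAT, the shared activator of histone genes, by 0.04 (adjusted p = 0.761).

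S phase genes, whose products copy DNA or make its building blocks, fell in part. Of 15 tested 0 rose and 7 fell at 2% against 0%, beside the same 9.65% and 11.2% of all genes, with a median of -0.41, led by TYMS, thymidylate synthase, with a difference of -0.98 (adjusted p = 0.000911), and by the replication helicase genes MCM2, MCM3 and MCM7 with -0.62, -0.66 and -0.64. In vessel 1 10 of 15 were higher than in vessels 2 to 4, beside 19.3% of all genes, and TYMS differed by 1.03. With butyrate 12 of 15 were lower by 1 or more than in medium (15.6% of all genes compared), with NaCl 7 (7.67%) and with 0% fluid 11 (4.8%). TYMS read 9.43 with butyrate, 11.91 with NaCl and 12.53 in medium. In bulk RNA, fewer cells in S phase and less RNA per cell cannot be told apart, and the part of cell division in the histone differences was not tested.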

How the data were processed

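The authors deposited 1 table of log2 values for 54675 probe sets on 15 arrays, which the submitters' processing notes attribute to GCRMA (background correction, normalization and summary), without a version. The log2 scale was inferred from the values. Probe sets were named by the platform annotation and checked by gene identifier: all 50 members matched and 0 symbols changed. No pseudocount or further normalization was applied.

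Concentration and vessel were factors in 1 limma 3.58.1 fit (R 4.3.3) over the 12 fluid arrays and 8737 genes, with 6 residual degrees of freedom. Tests were two-sided, with Benjamini-Hochberg adjustment over the genes tested and a threshold of 0.05. The vessel is a block because a number marks the same simulator vessel in the labels. After removing concentration means, 12 pairs of arrays from the same vessel correlated at 0.024 to 0.781 (median 0.376). The 36 pairs from different vessels correlated at -0.655 to 0.545 (median -0.114), so the ranges overlap. Alternatives were other filters, probe set rules, normalization, prior, no block, NaCl as control, and leaving out arrays. Every member past the signal limit was named, and up to 4 genes of other lists by smallest p, with SLBP and NPAT added after their values were seen. The fit was tested on simulated data. The members and lists were chosen with earlier results of these data known. The number of arrays limits the precision.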

Additional observations from a re-analysis of the deposited data

Results flagged for a closer look

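Each of 13 genes was looked at within its 4 arrays of a concentration, and an array was singled out where its gap to the nearest of the others, divided by the whole range of the 4, was above Dixon's critical value for 4 values. Of 39 such groups 17 held a far array, and in all 17 it was vessel 1 at the low end. The critical value gives about 1 in 20 by chance for 4 repeats, while these are 4 different vessels. No share of all genes was counted for this rule. The flags restate the vessel 1 difference given above, which was called as lower in 15.4% and as higher in 19.3% of all genes. The groups are not independent, since the 13 genes share arrays.

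At 0% fluid these were H2BC21 at 5.68 and H2BC4 at 4.86. At 1% they were H2BC12 at 11.11, H2BC12L at 9.50, H2BC21 at 6.82, H2BC5 at 10.08, H2BC6 at 8.39, H2BC9 at 7.72 and H4C8 at 6.32. At 2% they were H1-2 at 11.24, H2AC25 at 6.38, H2AC6 at 10.00, H2BC12 at 11.51, H2BC12L at 10.07, H2BC5 at 10.64, H2BC9 at 8.39 and H4C8 at 7.004. H1-10 and H2AC17 had no such array.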

How the results depend on the processing

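Of 1381 member values under alternatives of the fits, 1263 kept their side of the threshold, 85 were no longer called, 33 became called and 0 called values turned round. The sign changed in 12 values that were called neither in the main fit nor in the alternative. For 2% against 0%, 9 to 13 members rose when an array was left out, beside 3.39% to 15.4% of all genes. Without vessel 1 it was 13 (16.6% of all genes), among them H2AC17, which adds no support, as said above. With no replicate block it was 0 (0% of all genes), where all 13 adjusted p were above 0.2. H2BC12 lost its call in 11 of 23 alternatives and H2BC12L in 7. For 1% against 0% the count of 7 became 0 to 11 without single arrays, beside 0% to 6.59% of all genes. It was 0 with no replicate block and 0 with only the 8 arrays compared (0% of all genes in both). Without vessel 1 it was 12 with the block (6.62% of all genes). It was also 12 without the block (7.7%), a setting chosen after seeing the data. For 2% against 1% it became 0 to 3 without single arrays (0% to 2.31% of all genes) and 1 with only the 8 arrays compared (0.206%). For vessel 1 it was 10 to 13 without single arrays (9.37% to 18.1% of all genes) and 20 with no signal filter (7.03%). For the interaction it was 0 to 1, beside 0% to 1.44% of all genes with a negative estimate. With NaCl as the control, 5 members were higher and 1 lower with butyrate, beside 15.9% and 17% of all genes, and H2AC25 turned to -0.0899. In 0% fluid 1 was higher and 2 lower, beside 11% and 9.89% of all genes. There H1-2, H2BC21, H2BC5, H2BC6 and H2BC9 turned to -0.0416, -0.0097, -0.25, -0.53 and -0.30. The 2 members lower at 2% than with butyrate became 1 with a brighter side of at least 7 and 0 to 2 without single arrays. The cause was not tested. Values under log2 5 are too near background to rank, which limits 37 of the 50 members.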
